A study of Mus musculus with 6 samples.

Results

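The immediate early genes Fos, Fosb, Jun, Junb, Egr1, Atf3, Ier2, Ier3, Zfp36 and Nr4a1 were examined in the kidneys of WT and Selenbp1-KO mice. They were taken as the probes that the array design gives 1 of these 10 gene names, which found 14 of 56605 probes. Male C57BL/6J mice with an intact Selenbp1 gene (WT, 3 mice) were compared with male mice of a line lacking Selenbp1, also recorded as C57BL/6J (Selenbp1-KO, 3 mice). All 6 mice were 8 weeks old and were fasted for 20 h. They were anesthetized with CO2 and killed before the left kidney was removed. The WT mice were purchased, the Selenbp1-KO mice came from 1 knockout line, and whether WT and Selenbp1-KO mice were littermates and when each kidney was taken are not given in the sources used here. Kidney RNA of each mouse was labeled with 1 dye and hybridized to 1 array. The replicate numbers are those of the labels (WT 2, 3 and 4 and Selenbp1-KO 1, 2 and 3), and the mice are compared as replicates of a genotype.

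Immediate early genes are transcribed shortly after a cell receives a signal, from factors already present in the cell and without new protein synthesis. Growth factors and stress reach them through MAP kinases and the serum response factor with its partners of the Elk family, and calcium and cyclic AMP reach them through CREB. Many of their products are transcription factors that pass the signal on to later genes, their mRNAs are short-lived, and in the kidney they are known for their early rise after ischemia.

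Promoter sequences are shown for 4 of the genes whose signal was highest in the same WT mouse and, for contrast, for Jun and Ier3, whose signals were not. Junb and Zfp36, whose signals were not highest there either, are not shown, and the Junb promoter held the motif described below. Promoter entries of RefSeq, on the GRCm38.p6 build, were used for 8 of the 10 genes. Egr1, also highest in that WT mouse, was left out of this search, and Ier2 had no entry of the length used. The motif TGACG, the core of the site that CREB and ATF proteins bind, was searched on both strands in the 250 bases before the transcription start and stands in capitals (CGTCA on the other strand). Each sequence reads toward the gene and ends at the base before the start, except that of Fosb. The Fosb entry starts inside a longer transcript of the gene, and 30 bases around its motif are shown. The positions are chr12:85473640-85473889, forward strand for Fos, chr7:19310088-19310117, reverse strand for Fosb, chr1:191183334-191183583, reverse strand for Atf3, chr15:101266596-101266845, forward strand for Nr4a1, chr4:95052223-95052472, reverse strand for Jun, and chr17:35821463-35821712, forward strand for Ier3.
Fos: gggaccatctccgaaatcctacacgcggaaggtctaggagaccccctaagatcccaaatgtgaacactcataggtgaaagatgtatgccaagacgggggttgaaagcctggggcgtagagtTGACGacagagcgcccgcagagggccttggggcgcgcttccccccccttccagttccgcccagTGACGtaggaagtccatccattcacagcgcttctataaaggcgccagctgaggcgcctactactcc
Fosb: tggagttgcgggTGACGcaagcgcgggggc
Atf3: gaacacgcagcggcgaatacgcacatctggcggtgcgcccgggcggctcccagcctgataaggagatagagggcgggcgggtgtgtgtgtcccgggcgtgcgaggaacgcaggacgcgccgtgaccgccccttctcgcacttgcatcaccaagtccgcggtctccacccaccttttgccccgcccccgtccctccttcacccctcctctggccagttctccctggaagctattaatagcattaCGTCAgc
Nr4a1: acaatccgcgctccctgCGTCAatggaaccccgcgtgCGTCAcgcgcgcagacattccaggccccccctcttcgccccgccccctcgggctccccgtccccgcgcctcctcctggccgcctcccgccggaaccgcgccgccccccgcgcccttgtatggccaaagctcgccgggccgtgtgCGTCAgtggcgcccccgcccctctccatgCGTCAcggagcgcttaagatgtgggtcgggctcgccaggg
Jun: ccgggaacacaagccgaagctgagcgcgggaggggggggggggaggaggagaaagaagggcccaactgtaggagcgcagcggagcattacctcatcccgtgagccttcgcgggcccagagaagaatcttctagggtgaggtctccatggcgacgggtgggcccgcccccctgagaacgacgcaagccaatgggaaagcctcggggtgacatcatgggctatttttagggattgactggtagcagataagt
Ier3: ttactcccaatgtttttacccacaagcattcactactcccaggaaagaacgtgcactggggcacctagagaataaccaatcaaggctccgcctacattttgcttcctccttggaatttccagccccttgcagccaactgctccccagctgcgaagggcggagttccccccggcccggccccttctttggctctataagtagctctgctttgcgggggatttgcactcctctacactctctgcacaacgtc

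TGACG was found in 5 of the 8 promoters, against 17.8% of the 32851 promoters of the same length. Fos held 2 matches, 129 and 66 bases before the start, and Nr4a1 held 4, at 233, 213, 69 and 40 bases. Fosb, Atf3 and Junb held 1 each, at 60, 7 and 106 bases, and Jun, Ier3 and Zfp36 held none in this window. The CArG box, the element that serum response factor binds, was matched in the Zfp36 promoter, 58 bases before the start, and in 1.47% of all promoters. The AP-1 site TGANTCA, which shares no match with TGACG, was in none of the 8 and in 6.75% of all promoters. Only exact matches were counted, so a promoter without one may still hold a related site with other letters. These matches describe letters and not binding, and the choice of genes shown followed the signals below.

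The arrays were of similar brightness. The 75th percentile of the signal lay between 477 and 751, 51.8% to 55.5% of spots were well above background, and no spot was saturated. Selenbp1, the deleted gene, read 7.07, 7.02 and 7.02 in WT and 4.13, 3.98 and 4.10 in Selenbp1-KO kidneys as log2 signal relative to that percentile, a difference of −2.96 (limma adjusted p = 0.0021), and its probe also lists the Selenbp2 transcript. WT replicates 2 and 3, the brightest arrays, carried index 1 in the barcodes of the file headers. WT replicate 4 and the 3 Selenbp1-KO replicates carried index 2. This index is read here as the side of the slide, and whether all arrays shared 1 slide was not checked. Markers of the proximal tubule were present in every kidney, and none of the 8 passed the test below (summed signal of the 7 with a value on all arrays, linear and relative to the 75th percentile, 639 to 758 in WT and 687 to 711 in Selenbp1-KO). Markers of fibroblasts (4 of 6; summed signal 19.5 to 25.8 in WT and 31.9 to 41.4 in Selenbp1-KO), macrophages (3 of 6; 15.4 to 16.4 and 17.5 to 20.1) and red blood cells (3 of 5; 257 to 344 and 363 to 538) passed the test below with higher signal in Selenbp1-KO kidneys, and their part in the values of the early genes was not tested. In whole kidney, fewer cells that express a gene and less RNA per cell cannot be told apart.

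None of the 10 immediate early genes passed the threshold, a limma p under 0.05 before adjustment, in the comparison of the genotypes, each gene being read from its brightest probe, whereas 8% of all 36651 genes did. Of all genes, 6.86% were higher and 1.14% lower in Selenbp1-KO kidneys, a balance that turned for all probes when the slide side was a block (1361 higher and 2290 lower). The methods' t-test, run on the same values, put 1 of the 10 genes, Ier2, under it. The study's methods give that Student's test for group comparisons in general and limma for the arrays. The lowest limma p among the 10 genes was 0.112, for Ier2, and their adjusted p lay between 0.337 and 0.999. The median difference of the 10 genes, Selenbp1-KO minus WT on the log2 scale, was −0.03, with 4 genes above 0 and 6 below. The median of all genes was 0.12, dim ones included. When only probes well above background were kept, the median of all probes was 0 and that of the 10 genes −0.03. The median of the 10 genes changed sign between settings. It was 0.08 without WT replicate 2, with 7 genes above 0. When the slide side was a block it was 0.17, with 8 above 0. A p above the threshold does not show equal levels, and the 95% intervals below give the differences that these 6 mice leave possible. All 14 probes passed the filter on dim probes, and none of the 14 was under the threshold, against 7.98% of the 56097 probes tested. The brightest probes of 9 genes were well above background on all 6 arrays, and that of Fosb was so in 3 WT mice and 1 Selenbp1-KO mouse. Values below are log2 signals relative to the array's 75th percentile and are compared between mice, not between genes.

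**Figure D1:**
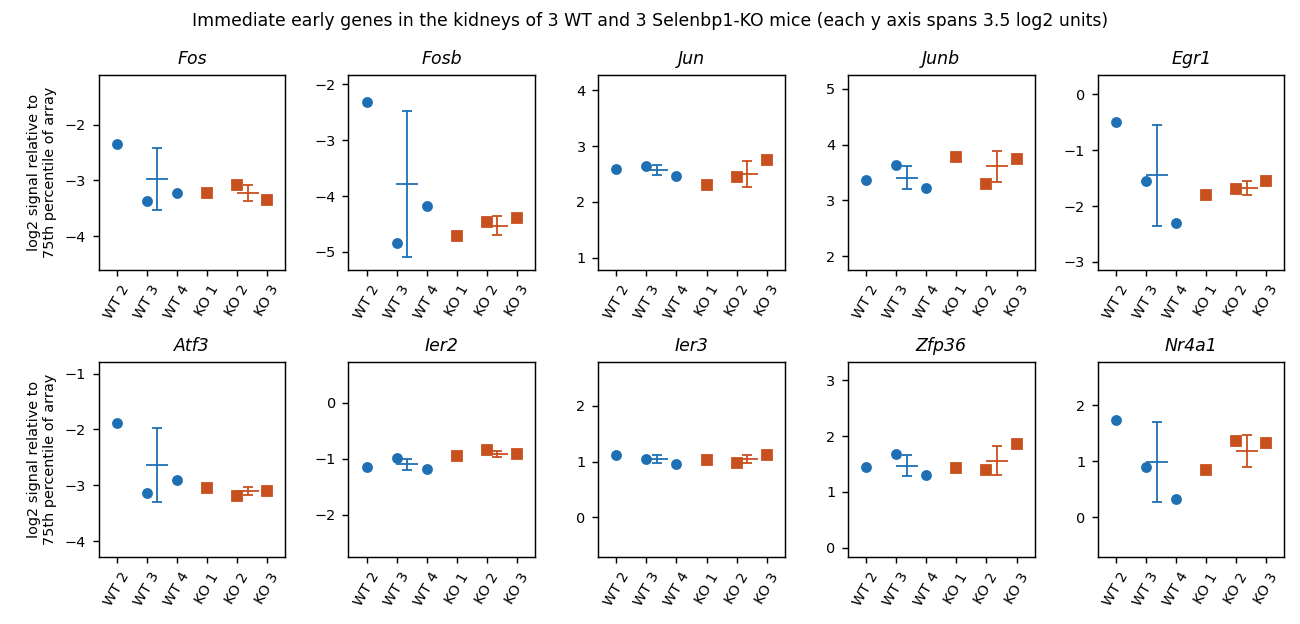
Log2 signal relative to the array's 75th percentile (y axis) of the brightest probe of each gene in each mouse (x axis). Circles are WT and squares Selenbp1-KO mice, and the bars beside them are the mean ± SD of 3 mice. Fos, Fosb, Egr1, Atf3 and Nr4a1 were highest in WT replicate 2.

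Fos and Fosb encode the partners that join Jun proteins in the AP-1 transcription factor. The Fos probe (chr12:86818118-86818177 on mm9, forward strand) read −2.34 in WT replicate 2, −3.37 in replicate 3 and −3.23 in replicate 4, whereas the 3 Selenbp1-KO mice, in the order of their numbers, read −3.23, −3.08 and −3.36. The values of the other genes follow in the same order. WT replicate 2 stood above the other 5 mice, and the other WT mice overlapped the Selenbp1-KO mice. The difference was −0.25 ± 0.284 (SE over 3 mice of each genotype, with a 95% interval from −0.94 to 0.45, limma adjusted p = 0.699). The Fosb probe (chr7:19888168-19888227, reverse strand) read −2.31, −4.84 and −4.18 in WT and −4.72, −4.46 and −4.40 in Selenbp1-KO mice. Again WT replicate 2 was highest, and the lowest value was also that of a WT mouse, replicate 3. The difference of Fosb was −0.75 ± 0.627 (SE, 95% interval −2.28 to 0.78, limma adjusted p = 0.576), the widest interval among the 10 genes. In intensity, Fosb read 143 in WT replicate 2 and between 21.4 and 28.6 in the other 5 mice. A second Fosb probe was dim on all 6 arrays, never well above background (intensity 3.93 to 4.44).

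Jun and Junb encode the other side of AP-1, Jun a strong activator of transcription and Junb a partner that can restrain it. Jun (chr4:94716928-94716987, reverse strand) read 2.59, 2.64 and 2.47 in WT and 2.31, 2.45 and 2.75 in Selenbp1-KO mice, so that the Selenbp1-KO values lay on both sides of the WT values. Its difference was −0.06 ± 0.144 (SE, 95% interval −0.41 to 0.29, limma adjusted p = 0.862). Junb (chr8:87500843-87500902, reverse strand) read 3.36, 3.63 and 3.23 in WT and 3.78, 3.29 and 3.75 in Selenbp1-KO mice. Selenbp1-KO replicates 1 and 3 were above all WT mice and replicate 2 was not, and the difference was 0.21 ± 0.183 (SE, 95% interval −0.24 to 0.65, limma adjusted p = 0.602). A second Junb probe gave the same difference, 0.21, with signal well above background in 2 mice of each genotype, and the third was never well above background. Neither Jun nor Junb was highest in WT replicate 2, unlike Fos and Fosb.

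Egr1 encodes a zinc finger transcription factor that binds GC-rich promoters. It read −0.49, −1.56 and −2.30 in WT and −1.80, −1.69 and −1.56 in Selenbp1-KO mice. The 3 WT mice spanned both the highest and the lowest value, and the Selenbp1-KO mice lay close together between them. The difference was −0.23 ± 0.439 (SE, 95% interval −1.30 to 0.84, limma adjusted p = 0.83). Atf3, a stress-induced member of the ATF and CREB family that mostly represses transcription, was measured by a probe at chr1:192994547-192994606 (reverse strand). It read −1.89, −3.14 and −2.91 in WT and −3.04, −3.19 and −3.10 in Selenbp1-KO mice. WT replicate 2 again stood apart, with the other 5 mice within 0.28 of each other, and the difference was −0.47 ± 0.327 (SE, 95% interval −1.26 to 0.33, limma adjusted p = 0.483). Nr4a1, an orphan nuclear receptor (chr15:101105071-101105130, forward strand), read 1.74, 0.89 and 0.32 in WT and 0.85, 1.36 and 1.32 in Selenbp1-KO mice. As for Egr1, the WT mice held both extremes, and the difference was 0.19 ± 0.372 (SE, 95% interval −0.71 to 1.1, limma adjusted p = 0.834).

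Ier2 and Ier3 encode proteins of other classes, Ier2 a nuclear protein linked to transcription and Ier3 a regulator of cell survival. Ier2 (chr8:87185211-87185245, reverse strand) read −1.14, −0.99 and −1.18 in WT and −0.95, −0.85 and −0.92 in Selenbp1-KO mice. It was the only one of the 10 genes whose genotypes did not overlap, a property shared by 14.1% of all genes. The difference was 0.19 ± 0.104 (SE, 95% interval −0.06 to 0.45, limma adjusted p = 0.337). With quantile normalization between arrays the same difference, 0.19, had an unadjusted p of 0.0462 (limma adjusted p = 0.588). A second Ier2 probe was never well above background. Ier3 (chr17:35959528-35959587, forward strand) read 1.11, 1.04 and 0.96 in WT and 1.02, 0.98 and 1.11 in Selenbp1-KO mice, and its highest and lowest mice differed 1.11-fold, the narrowest range of the 10 genes. Its difference was 0.00 ± 0.102 (SE, 95% interval −0.25 to 0.25). Zfp36, the RNA-binding protein tristetraprolin that speeds the decay of mRNAs with AU-rich elements, was measured at chr7:29161963-29162022 (reverse strand). It read 1.45, 1.68 and 1.30 in WT and 1.43, 1.40 and 1.86 in Selenbp1-KO mice, with Selenbp1-KO replicate 3 the highest and WT replicate 4 the lowest. Its difference was 0.09 ± 0.175 (SE, 95% interval −0.34 to 0.52, limma adjusted p = 0.834).

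**Figure D2:**
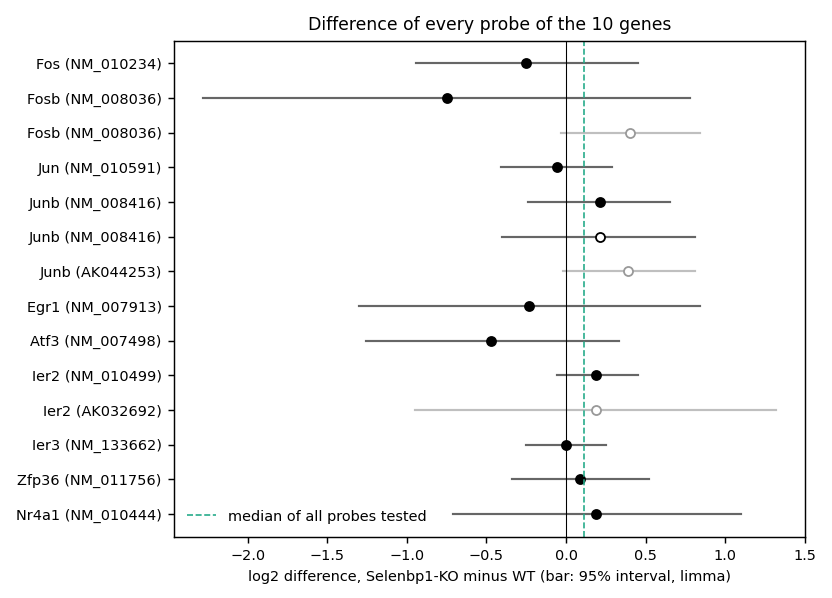
Log2 difference, Selenbp1-KO minus WT (x axis), of each of the 14 probes, named by gene and transcript (y axis), with bars for the 95% interval of limma. Filled points are the brightest probe of a gene, gray marks 3 probes never well above background, and the dashed line is the median of all probes, 0.11; every interval includes 0.

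WT replicate 2 had the highest signal of the 6 mice for 5 of the 10 genes (Fos, Fosb, Egr1, Atf3 and Nr4a1), whereas it was highest for 9.36% of all genes and for 12.5% of the 18311 genes well above background on all arrays. These 5 genes were singled out after their values were seen, and what follows describes them. Against the median of the other 5 mice, WT replicate 2 was at least 4.41-fold higher for Fosb, which was well above background in only 3 of those 5 mice. It was 2.32-fold higher for Atf3, 2.29-fold for Egr1, 1.85-fold for Fos and 1.81-fold for Nr4a1. A larger excess of WT replicate 2 was found in 0.177% of all genes for Fosb, 0.693% for Atf3, 0.742% for Egr1, 1.58% for Fos and 1.78% for Nr4a1. Centered on the 6 mice, the 5 genes averaged 1.07 (log2) in WT replicate 2 and between −0.34 and −0.09 in the other mice. The other 5 genes averaged −0.05 in the same mouse. Thus the excess covered the Fos side of AP-1, Egr1, Atf3 and Nr4a1, and not Jun, Junb, Ier2, Ier3 or Zfp36. WT replicate 4 was the lowest mouse for 6 of the 10 genes and for 10.8% of all genes.

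WT replicate 3, on the same slide side and of similar brightness (75th percentile 751, against 711 in WT replicate 2), held the lowest Fos and Fosb signals. The summed signal of neutrophil markers in WT replicate 2 was 32.1, within the 27.9 to 40.4 of all WT mice, most of it from Csf3r, and 2 of these 6 markers were never well above background. S100a9, a neutrophil calcium-binding protein, was highest in WT replicate 2 (−1.23, against −3.11 and −3.00 in the other WT mice and −1.25, −2.14 and −1.83 in Selenbp1-KO mice). Its partner S100a8 read −3.45 there, above the other WT mice (−5.10 and −4.11) and below Selenbp1-KO replicate 1 (−3.20). Ly6g, another marker of the list, was lowest in WT replicate 2 (0.65, against 1.01 to 1.31 in the other mice). Csf3r lay within the range of the other mice there. So did Camp, whereas Mpo was lowest there, and both were never well above background. The summed signal of macrophage markers in WT replicate 2 was 16.4, below all Selenbp1-KO mice, and that of lymphocyte markers (0.356) was the lowest of the 6 mice. Among the collecting duct markers 1 of 6, the water channel Aqp2, was highest in WT replicate 2 (4.69, against 3.79 to 4.31 in the other mice), which put their sum highest there (53.2), whereas the other markers of that list read below the median of the other mice. The part of these cells, of the slide side and of array brightness in the excess was not tested.

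**Figure D3:**
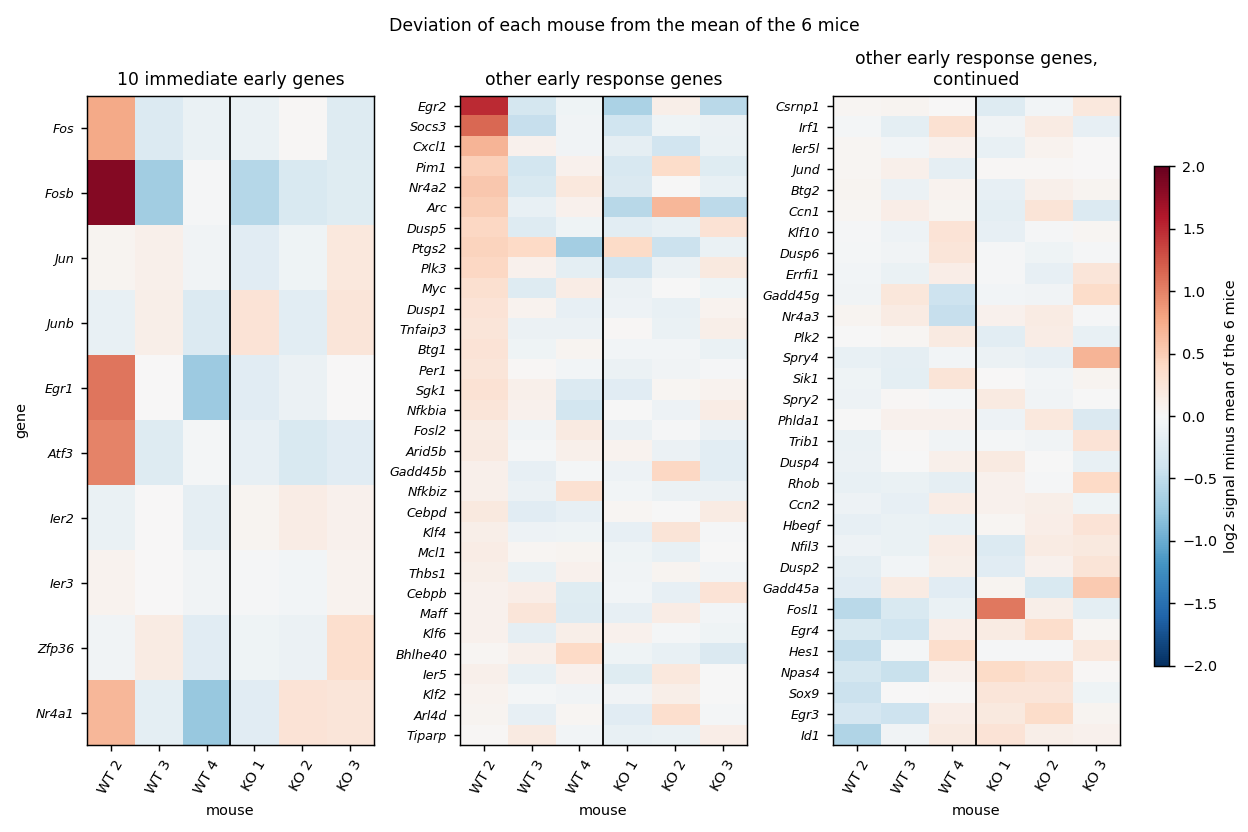
Log2 signal of each mouse (columns) minus the mean of the 6 mice, for the 10 immediate early genes (left) and 63 other early response genes (rows; middle and right, ordered by the excess of WT replicate 2 over the median of the other mice). The color scale ends at 2 and −2, and the black line separates WT from Selenbp1-KO mice; the red cells of the left panel stand mostly in WT replicate 2.

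The spread between WT mice was therefore wide for these 5 genes. The SD over the 3 WT mice was 0.557 for Fos, 1.31 for Fosb, 0.909 for Egr1, 0.666 for Atf3 and 0.715 for Nr4a1, between percentiles 98.3 and 99.9 of the 18311 genes well above background on all arrays. The SD over the 3 Selenbp1-KO mice was 0.14 for Fos, 0.173 for Fosb, 0.12 for Egr1, 0.0715 for Atf3 and 0.283 for Nr4a1, between percentiles 32.4 and 90.2. The WT SD was the larger for 7 of the 10 genes, for 64.6% of all genes and for 56.3% of those 18311 genes, among which Fosb is not counted. Whether the spread differs between genotypes was not tested. The WT spread came from WT replicate 2 and, for Egr1 and Nr4a1, also from WT replicate 4, the lowest mouse.

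**Figure D4:**
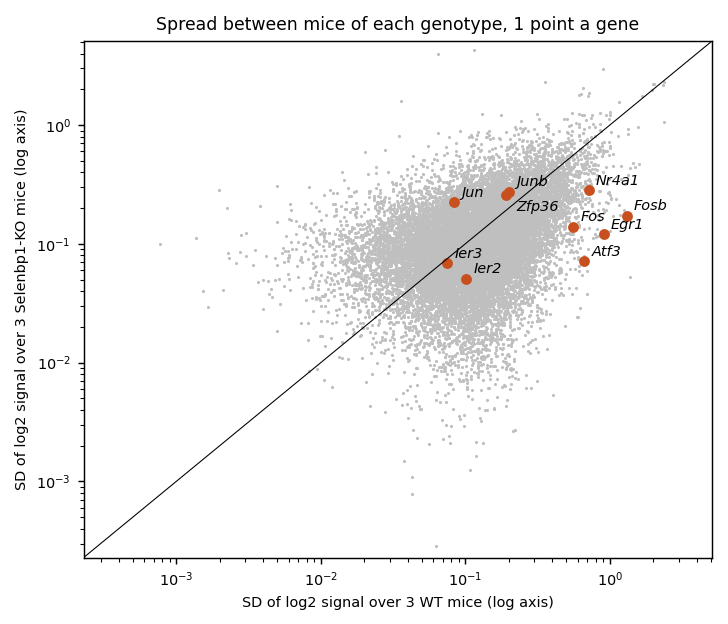
SD of the log2 signal over 3 WT mice (x axis) and over 3 Selenbp1-KO mice (y axis), both on log axes, for each gene well above background on all arrays (gray points) and for the 10 immediate early genes (named points). Fosb, Egr1, Nr4a1, Atf3 and Fos lie at WT SDs of 0.557 to 1.31, to the right of the line of equal spread.

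Leaving out WT replicate 2 moved the differences of these 5 genes. Fosb went from −0.75 to −0.01, Atf3 from −0.47 to −0.09, Fos from −0.25 to 0.07, Egr1 from −0.23 to 0.25, and Nr4a1 from 0.19 to 0.57. No p of the 10 genes was then under the threshold. A block for the slide side, which compares the Selenbp1-KO mice with WT replicate 4 alone, gave 0.62 for Egr1 and 0.86 for Nr4a1. The difference of Egr1 thus changed sign between settings, and those of Fos and, without WT replicate 4, Nr4a1 (−0.14) changed sign when single mice were left out.

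**Figure D5:**
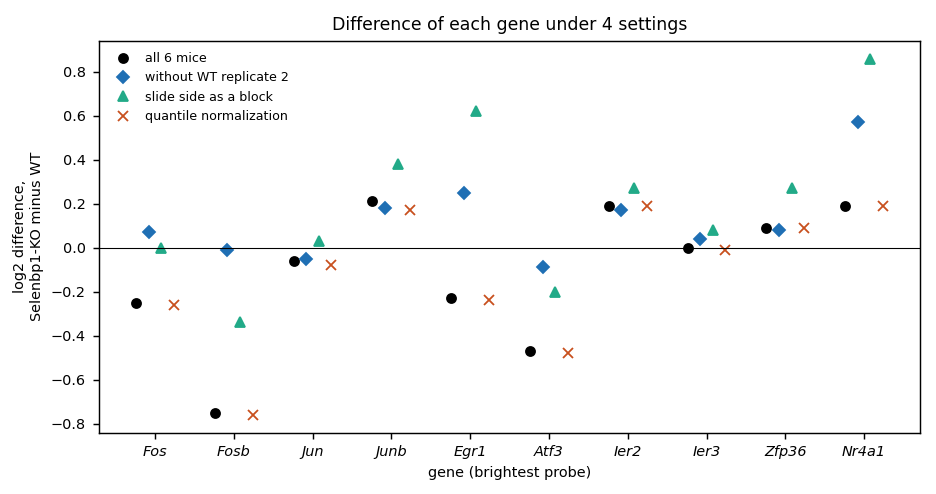
Log2 difference, Selenbp1-KO minus WT (y axis), of the brightest probe of each gene (x axis) with all 6 mice, without WT replicate 2, with a block for slide side, and with quantile normalization. Quantile normalization moved the points little, and leaving out WT replicate 2 brought Fosb from −0.75 to −0.01.

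The 63 other early response genes, taken from a list of early transcription factors and effectors, were set beside the 10. Of these, 2 passed the threshold with higher and 1 with lower signal in the Selenbp1-KO mice, 4.76% of the list against 8% of all genes, with a median difference of −0.02. Bhlhe40, a repressor of the basic helix-loop-helix class, was lower: it read 1.1, 1.16 and 1.47 in WT and 0.98, 0.91 and 0.77 in Selenbp1-KO mice (−0.36 ± 0.139, SE, limma adjusted p = 0.279). Hbegf, a growth factor of the EGF family, was higher: it read 0.71, 0.74 and 0.73 in WT and 0.92, 1.01 and 1.15 in Selenbp1-KO mice (0.29 ± 0.105, SE, limma adjusted p = 0.279). In both genes the genotypes did not overlap, as in 14.1% of all genes. Npas4, an activity-dependent factor of neurons, had an unadjusted p of 0.0432 but was never well above background. Rhob, a small GTPase (0.32), and the chemokine Cxcl1 (−0.47) missed the threshold although their genotypes did not overlap either, and Egr3 (0.40), never well above background, missed it too.

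WT replicate 2 was the highest mouse for 19 of the 63 genes, or 30.2%, against 9.36% of all genes and 12.5% of those well above background on all arrays. The 19 were 15 of the 38 effectors (39.5%) and 4 of the 25 transcription factors (16%). The smallest lead over the next mouse was 0.02 (log2), and 1 of the 19, Ptgs2, was never well above background. For Egr2 and Socs3, WT replicate 2 was at least 2-fold above the median of the other mice. Egr2, the zinc finger relative of Egr1, read −3.25 in WT replicate 2 and −4.62 to −5.37 in the other mice, and was well above background in 2 WT mice and no Selenbp1-KO mouse. With the dim arrays held at no less than the lowest signal well above background, the excess over the median of the other mice was at least 2.97-fold. Socs3, the feedback inhibitor of JAK and STAT signaling, read −0.24, −1.85 and −1.46 in WT and −1.79, −1.47 and −1.51 in Selenbp1-KO mice, a 2.42-fold excess. Nr4a2, the relative of Nr4a1, was 1.62-fold above the median of the other mice, and Cxcl1 1.76-fold. Dusp1, the phosphatase that shuts off MAP kinases, read 2.95 in WT replicate 2 and 2.51 to 2.75 in the other mice.

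Of 83 genes that act before, with or after the immediate early genes, 2 passed the threshold (2.41%, against 8% of all genes), but 14 did so with quantile normalization and 13 with the authors' values. Of the 36 upstream genes (kinases, serum response factor, its Elk partners, CREB and coactivators), 1 passed the threshold with higher and 1 with lower signal in the Selenbp1-KO mice. The lower one was Ep300, the histone acetyltransferase p300, which read −0.86, −0.71 and −0.85 in WT and −1.04, −1.1 and −1.3 in Selenbp1-KO mice (−0.34 ± 0.116, SE, limma adjusted p = 0.279). The higher one, the kinase gene Camk4, was never well above background. Elk4, which binds with serum response factor, read −0.24 in difference (unadjusted p = 0.0676). Of 15 AP-1 partners, 11 genes of the machinery that binds or degrades mRNAs with AU-rich elements, and 21 target genes measured, none was under the threshold. The lowest p among them belonged to Nrl (0.0605, never well above background) and Atf5 (0.0728) of the partners, Cnot1 (0.0857) and Zfp36l2 (0.0908), a relative of Zfp36, of the AU-rich element genes, and Il6 (0.0767, never well above background) of the targets. The others named by the same rule were Batf (a difference of 0.53), Dcp2 (0.14) and Mmp9 (0.47, never well above background). Spp1, the matrix protein osteopontin and the target with the next lowest p (0.151), read 6.12, 6.00 and 6.04 in WT and 5.94, 5.73 and 5.94 in Selenbp1-KO mice.

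The genes outside these lists whose signal followed the mean of the 10 genes most closely were sought among 939 genes well above background on all arrays that ranged over at least 1 log2 unit. Pearson's r over the 6 mice was 0.95 for the homeobox gene Tlx2 and 0.944 for Ncaph, a condensin subunit. Cdt1 and Mcm5, which license DNA for replication, had 0.932 and 0.914, and Mki67, a marker of dividing cells, had 0.846. Gpr161, Cyp27b1 and Gem, and a region of chromosome 1 without a gene name, had values between 0.83 and 0.884. All of these were highest in WT replicate 2. Cyp27b1, the kidney enzyme that activates vitamin D, was 6.18-fold above the median of the other mice. These values share 6 arrays and 1 high mouse, and they are a description.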

How the data were processed

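Total RNA of 6 kidneys was labeled with Cy3 and hybridized to 1-color Agilent arrays. Per the file headers, the authors extracted the scans with Feature Extraction 10.7.1.1 (the submitters' processing notes name 9.5.1.1), and the deposited intensities are linear, background-subtracted and detrended, with no scaling between arrays. The deposited p-value of a spot tests it against background, and further columns flag outlying, saturated or clearly detected spots. A second table deposited by the authors, 1 intensity per probe with equal distributions on all arrays, served as an alternative, and the software that made it is not given in the sources used here.

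Here intensities were divided by the array's 75th percentile over 59305 non-control spots and taken as log2, outlier spots were dropped, and a probe's spots were averaged. The 56097 probes detected (p under 0.05 against background) on 1 array or more entered limma 3.58.1 (two-sided, lmFit with eBayes) in R 4.3.3. As in the study's methods, a limma p under 0.05 before adjustment was the threshold, with Benjamini-Hochberg values over all probes beside it. A gene is its brightest probe over the 6 arrays. Accessions were matched to RefSeq genes (GRCm38.p6) for 32994 probes. Coordinates of probes come from the files (mm9).

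The 10 genes and all gene lists were chosen with earlier results of these data known. Besides the 10 genes, the text names the genes of each list with the lowest p (up to 8 under the threshold, otherwise 3) and the 10 genes most like the mean of the 10, of which 1 is not reported here; Egr2, Socs3, Nr4a2 and Dusp1 were named after their values were seen. The scripts were tested on simulated data. Replicates are taken as separate mice from their labels and numbers, and p-values measure the spread between these samples. The number of arrays limits the precision. The alternatives were normexp background correction (offset 50), quantile normalization, median scaling, the authors' values, 2 other filters on dim probes, trend and robust options (statmod 1.5.0), the methods' t-test, slide side and replicate number as blocks, leaving out each array, and averaging the probes of a gene.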

Additional observations from a re-analysis of the deposited data

How the results depend on the processing

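Over 17 alternatives, the count of immediate early genes under the threshold stayed 0 except for 1, Ier2, with quantile normalization, the authors' values and the methods' t-test, and for 1, Junb (0.27, p = 0.0396 in limma), with probes of a gene averaged; leaving out each array in turn it was 0 each time, and no adjusted p of the 10 genes was under 0.05 in any. Of the values of single genes, 157 kept their sign and 13 did not. The latter were Egr1 (0.62), Fos (0.00), Ier3 (0.08) and Jun (0.03) with a block for slide side, and, leaving out each array, Egr1 (−0.66 to 0.25), Fos (−0.44 to 0.07), Ier3 (−0.04 to 0.04), Jun (−0.19 to 0.03), Nr4a1 (−0.14 to 0.57) and Zfp36 (−0.06 to 0.19). The median of the 10 genes, −0.03, lay between −0.12 and 0.08 leaving out each array and was 0.17 with a block for slide side. The median of all probes, 0.11, was 0.00 with quantile normalization, where 2527 probes were higher and 2170 lower, against 3632 and 847.

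The count of all probes under the threshold, 4479, was 14616 with median scaling, 2841 with the stricter filter (fewer probes tested), 7537 with trend and robust options, and 2024 to 17585 leaving out each array (lowest without WT replicate 2, highest without WT replicate 4). The other early response genes went from 3 to 6 with trend and robust options and 1 to 6 leaving out each array. The partner, upstream, AU-rich element and target lists together went from 2 to 4 with normexp, 14 with quantile normalization, 4 with median scaling, 13 with the authors' values, 6 with the stricter filter, 11 with trend and robust options, 11 with the methods' t-test, 4 with a block for slide side, and 0 to 9 leaving out each array. The cause was not tested. WT and Selenbp1-KO mice share replicate numbers 2 and 3 only as numbers (correlation of deviations 0.17 and 0.19); with the replicate block, which rests on 2 pairs, 18430 probes and 5 genes of those lists were under the threshold, and none of the 10 genes was. Dim probes, such as that of Fosb, limit what can be read.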
